A study of Drosophila melanogaster with 9 samples.

Results

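The glutathione transferases of Drosophila melanogaster and a small group of alcohol, aldehyde and aldose enzymes were followed through the larval and prepupal fat body. Members were the genes whose FlyBase symbols begin with GstD, GstE, GstS, GstT, GstO or GstZ and a number, together with Adh, Aldh, Adhr, Fdh and Akr1B. The gene annotation held 40 such genes, of which 35 were glutathione transferases and 5 were the alcohol, aldehyde and aldose enzymes. Of these, 37 were among the 10242 genes of the deposited tables, and GstD11, GstE2 and GstE4 were not analysed here. Each of the 37 reached a normalised read count of 1 in 3 or more libraries and was tested, as were 10139 genes in all. By class, 10 of 11 GstD genes, 12 of 14 GstE genes, 3 GstO, 1 GstS, 4 GstT, 2 GstZ and the 5 other enzymes were measured.

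Glutathione transferases join the tripeptide glutathione to reactive or foreign molecules so that these can be bound and excreted. The Delta (GstD) and Epsilon (GstE) classes are large in insects, lie mostly in tandem clusters and are best known for detoxification, including insecticide resistance, while the Sigma, Theta, Omega and Zeta classes are shared more widely among animals. Adh, alcohol dehydrogenase, oxidises ethanol to acetaldehyde and Aldh, a mitochondrial aldehyde dehydrogenase, carries acetaldehyde on to acetate. The larval fat body is a main site of this route in an animal that feeds on fermenting fruit.

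There were 3 libraries from each of 3 groups, each made from the fat bodies of 5 pooled animals, by stranded poly(A) sequencing. All animals carried Lsp2-GAL4/+, which drives a UAS transgene from the promoter of a storage protein gene of the larval fat body. The larvae were in the third instar, have titles beginning e3IL and carried UAS-LacZ/+, a bacterial enzyme that serves as a control. The white prepupae, animals at puparium formation, form a group titled mitf and a group titled LacZ (here titled mitf and titled LacZ for short), but the genotype label gives UAS-Mitf/+ to both, and the column names inside the tables swap the names relative to the titles. Mitf, a transcription factor of the MiT/TFE family, read 378 to 411 in the larvae, 347 to 407 in titled mitf and 35204 to 68535 in titled LacZ, so the library titles go against the transgene they name. Groups are given by title throughout, and which prepupae overexpressed Mitf is read from this value alone.

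Values are normalised read counts, scaled by the authors, with summed values, to 6 digits, of 17195800 to 27178600 per library, in which 1 read was worth roughly 0.746 to 1.39. Genes listed at 0 made up 11.5% to 15.1% of the tables in larvae, 9.77% to 10.8% in titled mitf and 1.97% to 2.47% in titled LacZ. The summed level of 8 fat body markers, storage proteins and lipoprotein among them, was 7276880 to 12322500 in larvae, 10307600 to 10631300 in titled mitf and 1122660 to 1548780 in titled LacZ. The sums of larvae and titled mitf rested on different genes. Fbp1 averaged 7130 in larvae, 6366620 in titled mitf and 795011 in titled LacZ, while Lsp1beta averaged 3722040, 258309 and 33143. The summed level of 11 Malpighian tubule markers was 4446 to 5488, 3422 to 3827 and 44913 to 48099 in the same order, and 8 of the 11 were higher and none lower in titled LacZ than in titled mitf by limma at an adjusted p under 0.05. Of these, Irk3 averaged 0.677 in titled mitf and 23696 in titled LacZ, Best1 52.8 and 4807, SecCl 4.30 and 1925, and Alp4 19.1 and 1287. Alp4 averaged 2508 in larvae and was called lower in titled LacZ than in larvae (-0.98 ± 0.26). ClC-a and NKAIN were higher as well, while CapaR (8.74), Lkr (6.31), ZnT35C (4.60) and Oatp58Dc (3.37) averaged under 10 in titled LacZ. CapaR was tested through titled LacZ, where it was higher than in titled mitf. The marker ct went the other way, at means of 60.4 in titled mitf and 37.5 in titled LacZ, and was not called. Of 6 muscle markers, 6 fell from larvae to titled mitf and 5 from larvae to titled LacZ, with summed levels of 171 to 701 in larvae, 29.5 to 38.3 in titled mitf and 61.1 to 74.3 in titled LacZ. From larvae to titled mitf, 3 of 11 gut markers rose and 4 fell, 3 of 7 hemocyte markers rose and 1 fell, and 3 of 8 fat body markers rose and 4 fell. From larvae to titled LacZ the counts were 6 and 2 for gut, 5 and 1 for hemocytes, and 1 and 6 for fat body. Of the 11 tubule markers, 1 rose and 2 fell to titled mitf, and 5 rose and 1 fell to titled LacZ. Of all tested genes, 34.8% rose and 31.7% fell to titled mitf, and 46.3% rose and 32.2% fell to titled LacZ. Between the prepupae, 41.1% of all tested genes were higher and 31.6% lower in titled LacZ. The part of these marker differences in the results for the members was not tested. In whole tissue, fewer cells of a type and less RNA per cell cannot be told apart. The labels do not say that the libraries came from separate crosses, so p-values measure the spread between these libraries, which may be technical.

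A gene was called where limma gave an adjusted p under 0.05 over all tested genes, on the log2(value + 1) scale, which understates changes of low genes. From larvae to prepupae titled mitf, 9 members rose, 16 fell and 12 were not called, where 34.8% of all tested genes rose and 31.7% fell. From larvae to prepupae titled LacZ, 8 members rose, 21 fell and 8 were not called, against 46.3% and 32.2% of all tested genes. Between the prepupae, 13 members were higher and 18 lower in titled LacZ than in titled mitf, with 6 not called, against 41.1% and 31.6% of all tested genes. The median log2 difference over members was -1.10, -1.42 and -0.45 in these comparisons, and over all tested genes it was 0.08, 0.50 and 0.22. In the same order, groups did not overlap for 27, 26 and 31 of the 37 members. Over the 10139 tested genes they did not overlap for 7212, 8106 and 7713. The comparisons share libraries pairwise and are not independent. With each library rescaled to the same summed value, the medians over all tested genes moved up by 0.05, 0.45 and 0.41, and the split of calls over all genes moved from 4699 higher and 3260 lower to 5511 and 2469 in titled LacZ against larvae. In titled LacZ against titled mitf that split moved from 4166 higher and 3200 lower to 4952 and 2336. Among members the calls under that scaling were 9 higher and 16 lower, 8 and 20, and 14 and 17.

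The members took a smaller share of the prepupal libraries than of the larval ones. The share was 1.07%, 0.908% and 1.13% in larvae, 0.228%, 0.223% and 0.221% in titled mitf and 0.145%, 0.0940% and 0.133% in titled LacZ. The groups did not overlap. The 5 alcohol, aldehyde and aldose enzymes took 0.837% ± 0.110 (SD, n = 3) of the larval libraries, 0.0391% ± 0.0043 in titled mitf and 0.0165% ± 0.0008 in titled LacZ. The glutathione transferases took 0.196% ± 0.010, 0.185% ± 0.002 and 0.108% ± 0.026. Of the library sum without 6 storage and fat body proteins they took 0.315% ± 0.046, 0.319% ± 0.004 and 0.116% ± 0.029, so the order of larvae and titled mitf rests on the denominator. An exact permutation test of 3 libraries against 3 cannot go below p = 0.1, so these shares are given without a test.

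Adh (FBgn0000055, chromosome 2L, 14615552 to 14618902, plus strand, BDGP6) had the highest level per kb of exon of the members in larvae, at 57009.6. In titled mitf it stood at 3259 per kb against 18182 for GstD1, and in titled LacZ at 275 against 5898 for GstE9. As normalised read counts, Adh read 155415, 106989 and 123094 in larvae, 8204, 7196 and 6637 in titled mitf, and 582, 674 and 604 in titled LacZ. The 3 groups formed 3 separate steps with no overlap. The log2 difference was -4.12 ± 0.15 (SE) from larvae to titled mitf (adjusted p = 7.82e-09), -7.68 ± 0.15 from larvae to titled LacZ (adjusted p = 1.96e-10) and -3.56 ± 0.15 between the prepupae (adjusted p = 1.56e-08), all by limma. The mean in prepupae titled LacZ was 207-fold below that of larvae and 11.9-fold below that of prepupae titled mitf.

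Adhr, an Adh-related gene of the same annotated span that is transcribed on a shared transcript with Adh, read 1025, 789 and 818 in larvae. It read 59.9, 114 and 53.1 in titled mitf and 17.4, 6.14 and 11.1 in titled LacZ. The order of the groups was that of Adh and no groups overlapped, with log2 differences of -3.59 ± 0.37 from larvae to titled mitf, -6.22 ± 0.37 to titled LacZ and -2.63 ± 0.37 between the prepupae. Reads from the shared transcript cannot be assigned to one of the pair, so the Adhr values are not independent of those of Adh.

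Aldh (FBgn0012036, chromosome 2L, 9387389 to 9391567, plus strand) acts on the product of Adh. It read 42009, 40949 and 58472 in larvae, 53.0, 51.1 and 49.9 in titled mitf, and 159, 132 and 215 in titled LacZ. Its prepupal libraries lay far below the larval ones, and those titled LacZ lay above those titled mitf without overlap. The mean was 919-fold lower in prepupae titled mitf than in larvae (log2 difference -9.80 ± 0.19, adjusted p = 3.79e-10) and 279-fold lower in titled LacZ (-8.12 ± 0.19, adjusted p = 3.33e-10). Between the prepupae Aldh was 3.29-fold higher in titled LacZ (1.67 ± 0.19, adjusted p = 2.03e-05), the opposite direction to Adh.

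Akr1B, an aldose reductase that turns glucose into sorbitol, read 29751, 27591 and 24259 in larvae, 667, 496 and 358 in titled mitf, and 157, 108 and 138 in titled LacZ. It followed the order of Adh, with log2 differences of -5.78 ± 0.22, -7.66 ± 0.22 and, between the prepupae, -1.88 ± 0.22. Fdh, the glutathione-dependent formaldehyde dehydrogenase, read 4886, 4529 and 4779 in larvae, 1324, 1504 and 1330 in titled mitf, and 2187, 1784 and 2007 in titled LacZ. Its fall was the smallest of the 5, by 1.77 ± 0.10 from larvae to titled mitf and by 1.25 ± 0.10 to titled LacZ on the log2 scale, and titled LacZ was higher than titled mitf by 0.52 ± 0.10 (adjusted p = 0.000842, limma). In each of the comparisons with larvae, which share the larval libraries, 5 of 5 were called lower. Of all tested genes, 31.7% were lower in titled mitf and 32.2% in titled LacZ. Between the prepupae 2 were called higher and 3 lower in titled LacZ, against 41.1% and 31.6% of all tested genes.

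**Figure D1:**
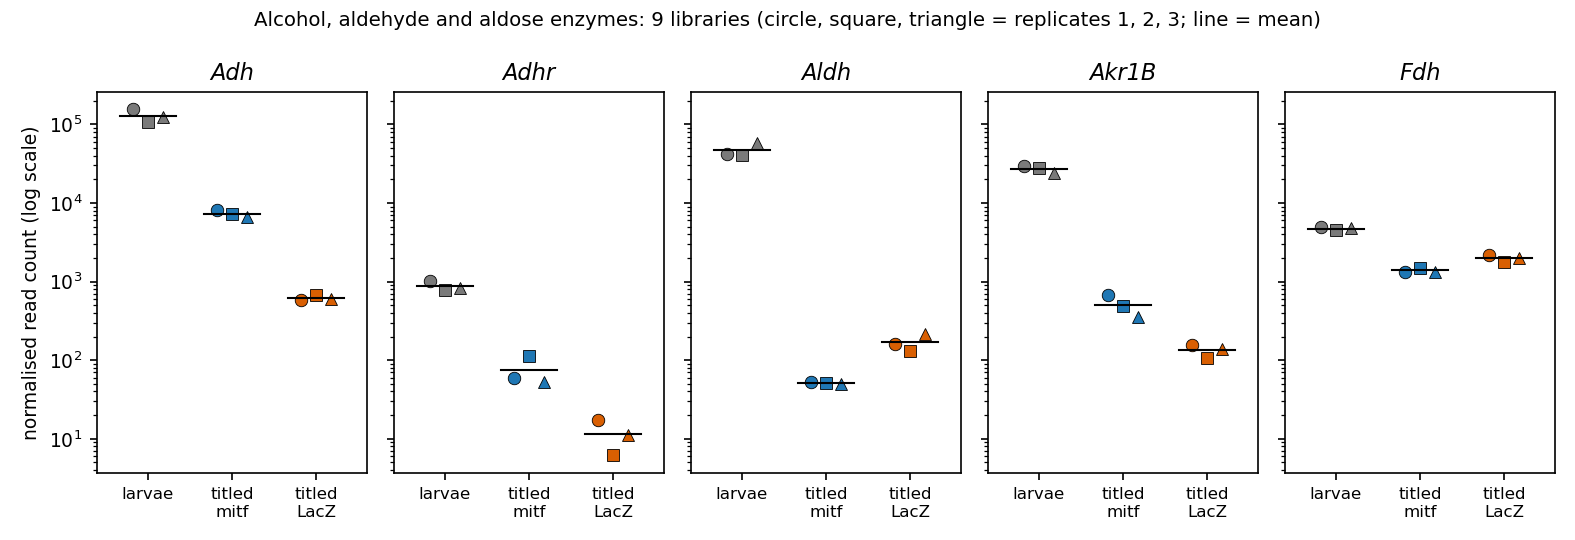
Normalised read counts (log scale) of Adh, Adhr, Aldh, Akr1B and Fdh in the 9 libraries, with circle, square and triangle for replicates 1, 2 and 3 and a line at each group mean. In each of the 5 panels the 6 prepupal libraries lie below the 3 larval ones, and Aldh and Fdh are the panels in which titled LacZ lies above titled mitf.

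The GstD cluster lies on chromosome 3R from 12364776 to 12380815 (BDGP6), with GstD10, GstD9 and GstD1 on the minus strand and GstD2 to GstD8 on the plus strand in numerical order. Neighbouring GstD genes are tandem paralogues, as are those of the GstE cluster, and how the authors' counting assigned reads that match more than 1 copy is not given in the sources used here, so the split between copies is uncertain. From larvae to prepupae titled mitf, 1 of 10 rose and 3 fell, against 34.8% and 31.7% of all tested genes. From larvae to prepupae titled LacZ, 1 rose and 6 fell, against 46.3% and 32.2%. Between the prepupae 2 were higher and 3 lower in titled LacZ, against 41.1% and 31.6%.

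GstD1, the most abundant of the class and known for its action on DDT, read 16915, 12778 and 9085 in larvae, 15104, 14684 and 16193 in titled mitf, and 4124, 2097 and 4175 in titled LacZ. Larvae and prepupae titled mitf overlapped and were not called apart (log2 difference 0.29 ± 0.28, adjusted p = 0.396), while the libraries titled LacZ lay below the others. The mean in titled LacZ was 4.42-fold below titled mitf (-2.21 ± 0.28, adjusted p = 5.86e-05) and 3.73-fold below larvae (-1.92 ± 0.28, adjusted p = 0.000136), by limma.

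GstD7, a neighbour of GstD8 near the end of the cluster, was abundant in larvae alone among the 3 groups. It read 9127, 7559 and 9125 in larvae, 5.48, 6.43 and 4.89 in titled mitf, and 17.5, 2.65 and 38.6 in titled LacZ. The larval libraries stood apart from both prepupal groups, which overlapped each other. The fall was 1536-fold to titled mitf (log2 difference -10.35 ± 0.68, adjusted p = 5.08e-07) and 439-fold to titled LacZ (-9.27 ± 0.68, adjusted p = 7.14e-07). The difference between the prepupae, 1.08 ± 0.68, was not called with all libraries (adjusted p = 0.178, limma). Its neighbour GstD6 read 371, 241 and 207 in larvae, 3.66, 0 and 2.45 in titled mitf, and 22.3, 7.07 and 22.3 in titled LacZ, and was called in all 3 comparisons (-6.72 ± 0.61, -4.02 ± 0.61 and 2.70 ± 0.61 on the log2 scale).

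GstD3 went the other way between larvae and prepupae titled mitf. It read 27.6, 24.8 and 28.7 in larvae, 140, 258 and 317 in titled mitf, and 6.37, 3.53 and 3.71 in titled LacZ, with no overlap between groups. It rose by 3.01 ± 0.33 on the log2 scale to titled mitf (adjusted p = 2.26e-05) and was lower by -2.38 ± 0.33 in titled LacZ than in larvae (adjusted p = 9.68e-05, limma). Between the prepupae the difference of -5.39 ± 0.33 (adjusted p = 2.86e-07) was the lowest of the 37 members, with means 52.5-fold apart.

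GstD5 read 16.6, 13.7 and 17.1 in larvae, 19.2, 16.7 and 115 in titled mitf, and 314, 29.1 and 208 in titled LacZ. It was the GstD gene called higher in titled LacZ than in larvae (2.91 ± 0.91, adjusted p = 0.0139), but the adjusted p was 0.0629 without titled LacZ replicate 1 and 0.0599 without replicate 3. GstD2, GstD4 and GstD8 were called in no comparison under the main settings. GstD2 read 41.0 to 66.3 in larvae, 0.914 to 48.9 in titled mitf and 1.77 to 105.1 in titled LacZ, so that titled LacZ overlapped both others. GstD4 read 74.5 to 159 in larvae, 23.2 to 37.9 in titled mitf and 7.07 to 98.8 in titled LacZ. Its larvae and titled mitf did not overlap, at an adjusted p of 0.0565 by limma. With these 2 groups alone in the fit the adjusted p was 0.0059, as all groups otherwise share the estimate of the spread. GstD8 was near its floor, with values of 0 to 6.42, and reached 1 in 4 libraries. GstD9 read 117 to 169 in larvae, 102 to 156 in titled mitf and 33.3 to 62.7 in titled LacZ, lower in titled LacZ than in either other group. GstD10 was highest in larvae, at 355 to 939, and at 108 to 120 in titled mitf and 225 to 262 in titled LacZ differed between all 3 groups.

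**Figure D2:**
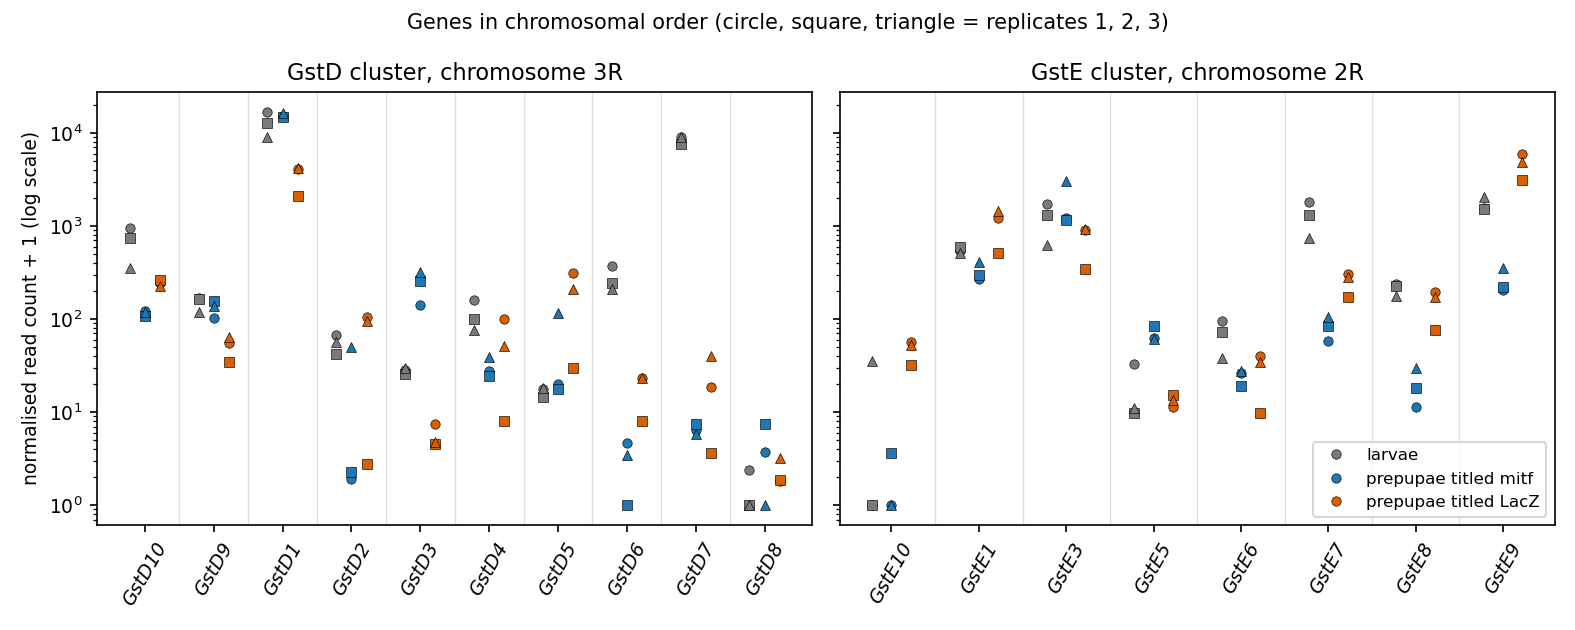
Normalised read count + 1 (log scale) of each measured gene of the GstD and GstE clusters, in chromosomal order, with circle, square and triangle for replicates 1, 2 and 3 of larvae, prepupae titled mitf and prepupae titled LacZ. GstD7 at 7559 to 9127 in larvae lies above its cluster neighbours GstD6 at 207 to 371 and GstD8 at 0 to 1.38, and the square of prepupae titled LacZ often lies below its circle and triangle.

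The GstE cluster lies on chromosome 2R from 18396638 to 18409835, and GstE11, GstE12, GstE13 and GstE14 lie elsewhere on that arm. From larvae to prepupae titled mitf, 4 of 12 GstE genes rose and 5 fell, against 34.8% and 31.7% of all tested genes. From larvae to prepupae titled LacZ 4 rose and 5 fell, against 46.3% and 32.2%. Between the prepupae, 6 were higher and 5 lower in titled LacZ, against 41.1% and 31.6%.

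GstE9, at the end of the cluster, read 1568, 1511 and 2024 in larvae, 205, 222 and 354 in titled mitf, and 5945, 3103 and 4896 in titled LacZ. The groups were separate, with titled mitf at the bottom and titled LacZ at the top. The log2 difference was -2.73 ± 0.27 from larvae to titled mitf (adjusted p = 8.5e-06), 1.41 ± 0.27 to titled LacZ (adjusted p = 0.00073) and 4.15 ± 0.27 between the prepupae (adjusted p = 3.54e-07), where the means were 17.8-fold apart. Its neighbours GstE7 and GstE8 were also low in titled mitf. GstE7 read 737 to 1810 in larvae, 57.6 to 105 in titled mitf and 169.6 to 301 in titled LacZ. GstE8 read 174 to 236, 10.3 to 29.0 and 75.0 to 195. Both were called lower in titled mitf than in either other group, GstE8 by -3.52 ± 0.42 against larvae and with titled LacZ higher by 2.90 ± 0.42.

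GstE12, outside the cluster, had the highest level per kb of exon of the class averaged over the 9 libraries, at 4098 against 2796 for GstE9, but in titled LacZ it stood at 1890.5 against 5898 for GstE9. It read 7225, 6545 and 6362 in larvae, 8249, 7957 and 7298 in titled mitf, and 2558, 2599 and 2771 in titled LacZ. Prepupae titled LacZ lay below both other groups, by 1.57 ± 0.09 on the log2 scale against titled mitf (difference -1.57, adjusted p = 1.59e-07) and by 1.34 ± 0.09 against larvae (difference -1.34, adjusted p = 3.52e-07). The rise of 0.22 ± 0.09 from larvae to titled mitf had an adjusted p of 0.0497 and was not called under 11 of the alternative settings.

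GstE11 read 166, 111 and 123 in larvae, 569, 626 and 621 in titled mitf, and 55.6, 54.9 and 36.4 in titled LacZ. It was highest in titled mitf and lowest in titled LacZ, with log2 differences of 2.19 ± 0.20 from larvae to titled mitf, -1.43 ± 0.20 to titled LacZ and -3.63 ± 0.20 between the prepupae (adjusted p = 1.45e-07, limma). GstE13 read 400.5 to 517 in larvae, 56.3 to 72.9 in titled mitf and 20.0 to 35.2 in titled LacZ, and was called in all 3 comparisons. GstE5 was highest in titled mitf, at 59.9 to 83.6, against 8.70 to 31.8 in larvae and 10.4 to 14.1 in titled LacZ.

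GstE14, also named noppera-bo, is needed for ecdysteroid synthesis in the ring gland. It read 0, 0 and 2.33 in larvae, 3.65, 2.56 and 4.87 in titled mitf, and 9.55, 11.5 and 16.4 in titled LacZ. These are a few reads per library, separate between groups, and were called in all 3 comparisons (1.62 ± 0.51, 3.14 ± 0.51 and 1.52 ± 0.51, limma), with 3 alternative settings losing the call in each of titled mitf against larvae and titled LacZ against titled mitf. Of 2 ring gland markers tested, sad averaged 333 in prepupae titled mitf and 1.56 in titled LacZ and was listed at 0 in larvae, while phtm averaged 1.80, 7.76 and 0. Their part in the GstE14 values was not tested.

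GstE10 reached 1 in 5 libraries, so its place among the tested genes rested on titled LacZ, where it was highest. It read 0, 0 and 34.6 in larvae, 0, 2.60 and 0 in titled mitf, and 56.2, 30.7 and 52.2 in titled LacZ. Among larvae, replicate 3 was also highest for the tubule markers Irk3 (1.28, 1.16 and 117), SecCl (0, 0 and 10.2) and CapaR (0, 0 and 24.9). The tubule markers Alp4, ClC-a, Lkr and Oatp58Dc were not highest there. The part of this in the larval GstE10 values was not tested. Titled LacZ was above titled mitf without overlap (4.90 ± 1.23, adjusted p = 0.00492), while it overlapped the larvae, where the call (3.80 ± 1.23, adjusted p = 0.0168) was lost without larval replicate 1 or 2 (adjusted p = 0.065 and 0.0659) and without titled LacZ replicate 1 or 3 (adjusted p = 0.0518 and 0.0527). GstE1, at 514 to 594, 269 to 407 and 508 to 1459, was called higher in titled LacZ than in titled mitf (1.60 ± 0.34), and its call against larvae (0.82 ± 0.34, adjusted p = 0.0483) was lost under 12 alternative settings. GstE3 read 627 to 1729.7 in larvae, 1155 to 3036 in titled mitf and 345 to 938 in titled LacZ. It was lower in titled LacZ than in titled mitf at an adjusted p of 0.0457 by limma, a call lost under 9 settings. GstE6, at 37.3 to 93.9, 18 to 26.9 and 8.83 to 39.0, was lower in both prepupal groups than in larvae with adjusted p of 0.0413 and 0.0332, lost under 8 and 5 settings.

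**Figure D3:**
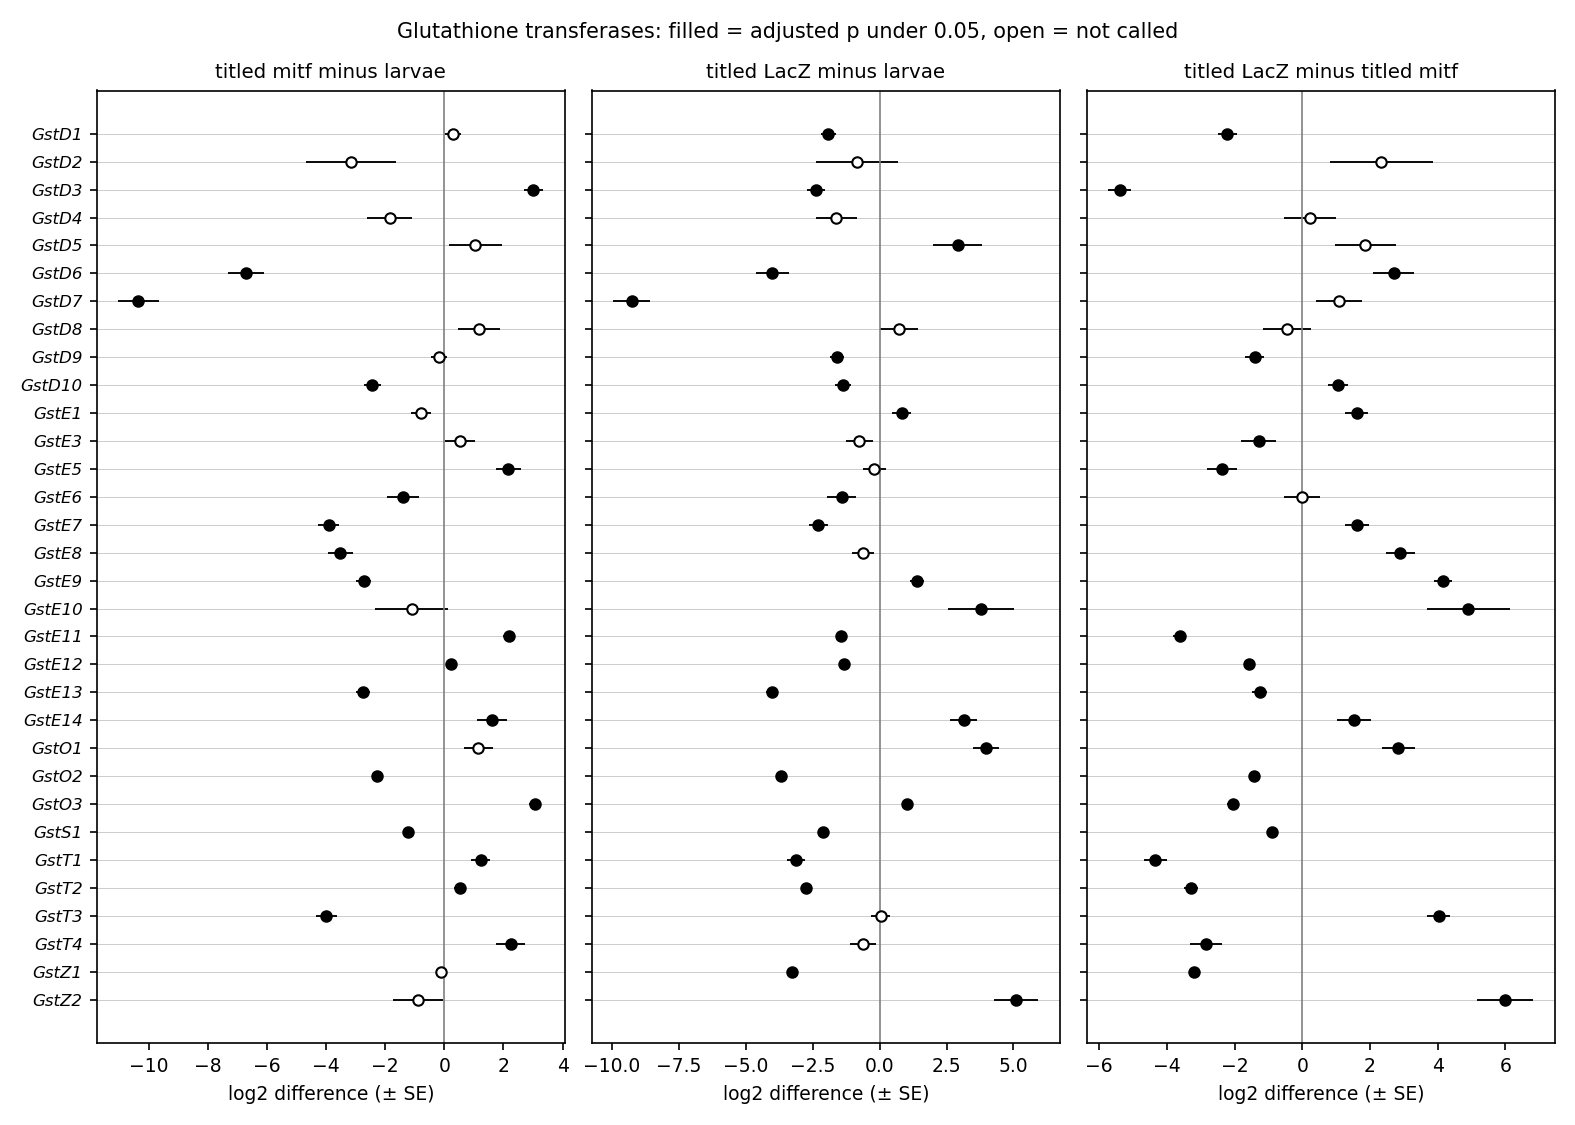
Log2 differences ± SE of the 32 measured glutathione transferases in the 3 comparisons, with filled points at an adjusted p under 0.05 by limma and open points for the rest, on a separate horizontal scale in each panel. GstD7 at -10.35 and -9.27 lies farthest left in the comparisons with larvae, and GstZ2 at 5.99 and GstD3 at -5.39 mark the ends between the prepupae.

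GstS1 (chromosome 2R, 17093246 to 17099501, minus strand) is the single Sigma gene and acts on products of lipid peroxidation. It read 9223, 8731 and 7915 in larvae, 3828, 3863 and 3426 in titled mitf, and 1864, 2034 and 2014 in titled LacZ. The groups were separate and tight, with log2 differences by limma of -1.22 ± 0.09 from larvae to titled mitf (adjusted p = 1.41e-06), -2.13 ± 0.09 to titled LacZ (adjusted p = 1.62e-08) and -0.91 ± 0.09 between the prepupae (adjusted p = 1.03e-05).

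The Omega class, whose enzymes act as thiol transferases and reduce dehydroascorbate, changed its leading member. GstO2 read 1395, 1425 and 1475 in larvae, 308, 297 and 279.9 in titled mitf, and 95.7, 105 and 129.6 in titled LacZ. GstO3 read 559.9, 607 and 506 in larvae, 4562, 4957 and 4345 in titled mitf, and 1413, 811 and 1229 in titled LacZ. GstO2 was thus lower in both prepupal groups (-2.28 ± 0.12 and -3.70 ± 0.12), and GstO3 was higher in both (3.05 ± 0.18 and 1.01 ± 0.18). Both were lower in titled LacZ than in titled mitf, by -1.42 ± 0.12 and -2.04 ± 0.18. GstO1 was low, at 0, 1.24 and 2.33, then 1.83, 3.84 and 4.88, then 24.7, 28.3 and 37.9, and was called higher in titled LacZ than in larvae (3.98 ± 0.49, adjusted p = 3.42e-05) and than in titled mitf (2.84 ± 0.49, adjusted p = 0.000451). The 3 genes lie together on chromosome 3L, GstO2 and GstO1 being 240 bases apart, and se lies between GstO3 and GstO2, overlapping GstO2 by 61 bases on the opposite strand.

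Theta genes, whose enzymes act on a varied set of substrates, differed in direction. GstT4 (chromosome X) read 1269, 1266 and 1278 in larvae, 6878, 5344 and 5890 in titled mitf, and 1592, 309 and 1174 in titled LacZ. It rose 4.75-fold to titled mitf (2.24 ± 0.48, adjusted p = 0.00217), while titled LacZ overlapped the larvae and was not called apart from them (-0.61 ± 0.48, adjusted p = 0.269). GstT3, also on chromosome X, read 935, 898 and 680.3 in larvae, 39.3, 94.7 and 36.1 in titled mitf, and 1142, 642 and 836 in titled LacZ. The libraries titled mitf were thus the low ones, 14.8-fold below larvae (-3.99 ± 0.35, adjusted p = 3.96e-06) and 15.4-fold below titled LacZ (4.02 ± 0.35, adjusted p = 3.2e-06), with larvae and titled LacZ overlapping (0.03 ± 0.35, adjusted p = 0.935).

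GstT1 and GstT2 lie 107 bases apart on chromosome 2R in the same orientation. GstT1 read 938, 913 and 829 in larvae, 1910.3, 2405 and 1984 in titled mitf, and 176, 54.8 and 110.2 in titled LacZ. GstT2 read 170.0, 138 and 165, then 199, 271 and 217, then 27.9, 23.0 and 17.9. Both were highest in titled mitf and lowest in titled LacZ without overlap, by 18.5-fold for GstT1 (-4.34 ± 0.33, adjusted p = 1.3e-06) and by -3.28 ± 0.21 on the log2 scale for GstT2. The rise of GstT2 from larvae to titled mitf (0.53 ± 0.21, adjusted p = 0.0441) was lost under 6 alternative settings.

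Zeta enzymes isomerise maleylacetoacetate in tyrosine breakdown, a role best known from mammals. GstZ1 read 259.9, 253 and 265 in larvae, 232, 255 and 239 in titled mitf, and 25.5, 27.4 and 23.8 in titled LacZ. Larvae and titled mitf overlapped (-0.10 ± 0.13, adjusted p = 0.538), and titled LacZ was 9.47-fold below titled mitf (-3.20 ± 0.13, adjusted p = 1.56e-08). GstZ2, its neighbour at 268 bases on chromosome 3R, did the reverse, with 0, 0.668 and 8.56 in larvae, 0, 0 and 1.49 in titled mitf, and 109.7, 39.0 and 144 in titled LacZ. Its difference of 5.99 ± 0.84 between the prepupae (adjusted p = 0.000107, limma) was the highest of the members, and GstZ2, like GstE10, reached 1 in 5 libraries and was tested through titled LacZ, where it was high. Of 4 genes of phenylalanine and tyrosine breakdown tested, 1 was higher and 1 lower in titled LacZ than in titled mitf. Hpd and Faa were not called, and of all tested genes 41.1% were higher and 31.6% lower. The higher gene was hgo, homogentisate 1,2-dioxygenase, at means of 0.305 in titled mitf and 9.99 in titled LacZ. It was tested through titled LacZ, where it was highest. The lower gene was Hn, phenylalanine hydroxylase, at 2550.5 in larvae, 17173 in titled mitf and 2247.5 in titled LacZ.

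Within classes, levels per kb of exon showed which gene supplied most of the class transcript. GstD1 held 53.4% and GstD7 41.0% of the GstD level in larvae, and GstD1 held 96.0% in titled mitf and 84.4% in titled LacZ. Of the GstE level, GstE12 held 41.0%, 58.9% and 18.8% in larvae, titled mitf and titled LacZ, and GstE9 held 18.8%, 3.37% and 55.0%. GstE9 was thus the leading GstE gene in prepupae titled LacZ and GstE12 in the other groups. Of the GstT level, GstT4 held 38.3%, 67.1% and 47.9%, GstT3 22.3%, 0.568% and 43.3%, and GstT1 32.8%, 28.8% and 6.95%. Of the GstO level, GstO2 held 56.5% in larvae and 3.13% and 4.72% in the prepupae, where GstO3 held 96.8% and 92.9%. These are means of 3 libraries, and they describe proportions, so a share can rise where the gene itself did not.

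**Figure D4:**
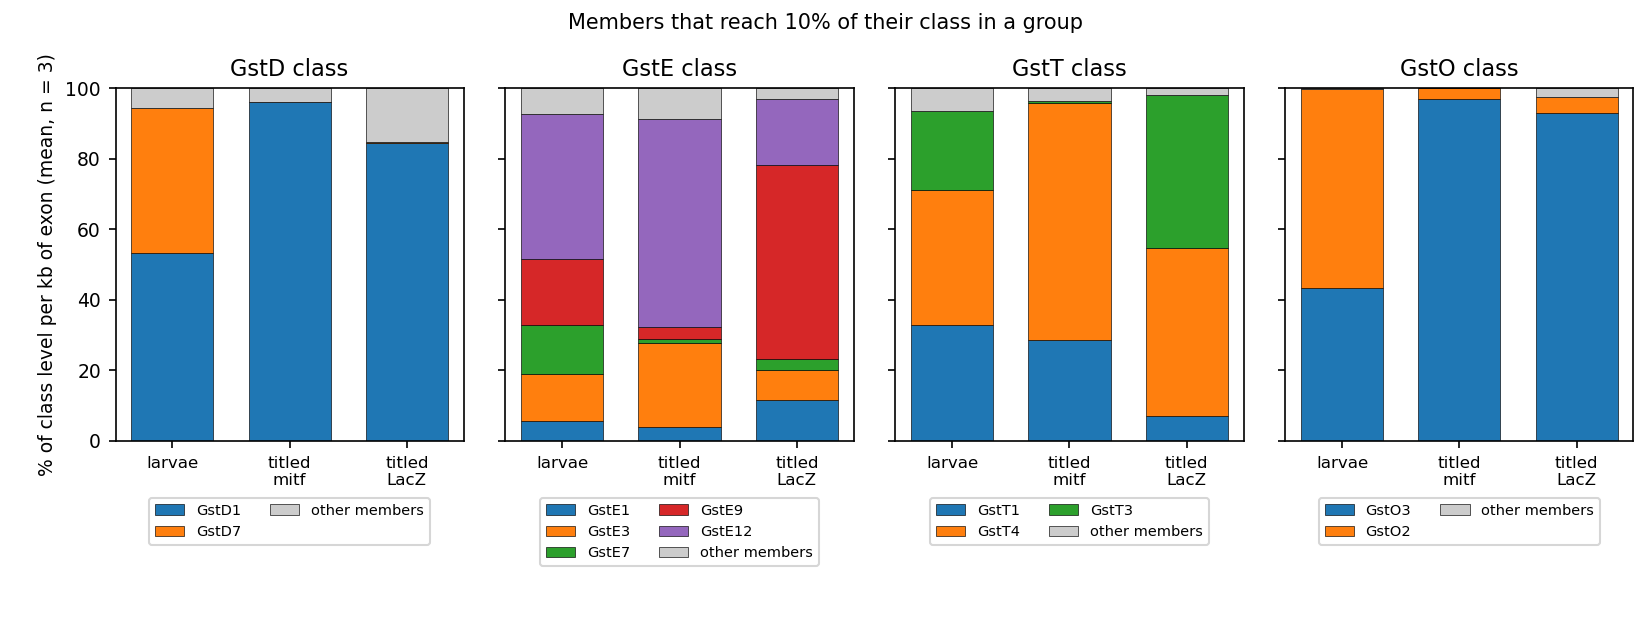
Mean share (%) of the summed level per kb of exon of the GstD, GstE, GstT and GstO classes taken by each gene that reached 10% in a group, with the other genes of the class in grey. The GstD7 share of 41.0% in larvae is absent from the prepupae, and GstE9 with 55.0% and GstT3 with 43.3% fill much of their class in prepupae titled LacZ.

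Replicate 2 of the prepupae titled LacZ was low for many members. Among genes that reached 10 in that group, 12 of 35 members were at least 2-fold below both other replicates there, against 376 of 8698 genes, or 4.32%, in the whole table. The 2-fold limit was chosen after the values were seen, and no test was made. The 12 were GstD2, GstD4, GstD5, GstD6, GstD7, GstE1, GstE3, GstE6, GstE8, GstT1, GstT4 and GstZ2. GstD2 was the most extreme, with 105.1, 1.77 and 93.6 in replicates 1, 2 and 3. GstD4 read 98.8, 7.07 and 50.5. GstD2, GstD4, GstD5, GstD6 and GstD7 lie in 1 run of the cluster with GstD3, which was under 10 in that group and was not counted.

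The median ratio of replicate 2 to the mean of replicates 1 and 3 was 0.580 over the 35 members and 1.01 over 8693 genes. By class it was 0.214 for 8 GstD genes, 0.576 for 12 GstE, 0.516 for 4 GstT and 0.731 for the 5 alcohol, aldehyde and aldose enzymes. Adh, GstS1, GstZ1, GstD10, GstE5, GstE11 and GstT2 had ratios from 1.0 to 1.23, so the library was not low for the members throughout. Of the marker lists, the median ratio was 0.634 for 8 fat body markers, 0.616 for 7 gut markers, 0.825 for 6 hemocyte markers and 1.0 for 8 tubule markers, and Mitf was highest in replicate 2, at 68535 against 35204 and 45647. The part of these in the low values was not tested.

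Without that library, 17 members were called higher and 17 lower in titled LacZ than in titled mitf. GstD2 (4.06), GstD4 (1.28), GstD5 (2.89) and GstD7 (2.04, adjusted p = 0.000321, limma) were then called higher, and GstE3 (-0.82, adjusted p = 0.176) was no longer called. The log2 difference of GstD1 was then -1.88 and that of GstT4 -2.13, both still called. Against larvae, 8 members were higher and 20 lower in titled LacZ without it. The shared estimate of the spread also changed the comparison of titled mitf with larvae. There 28 members were called without that library, against 25 with it, and GstD2, GstD4 and GstE1 gained a call. In prepupae titled mitf, replicate 3 was at least 2-fold above both others for GstD2, GstD5 and GstE3, with 48.9, 115 and 3036, and for 2.24% of all genes that reached 10 there.

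**Figure D5:**
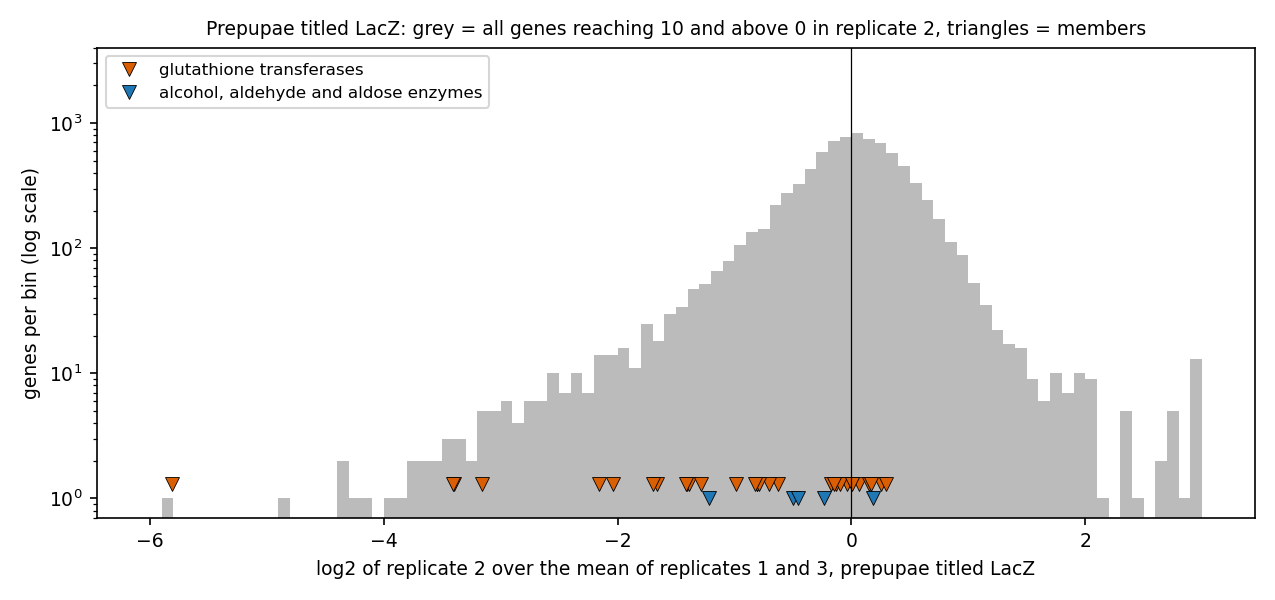
Log2 of replicate 2 over the mean of replicates 1 and 3 in prepupae titled LacZ, with a grey histogram (log scale) of genes reaching 10 in the group and above 0 in replicate 2, values above 3 placed in the last bin, and triangles for the members. Triangles trail to the left of 0, GstD2 farthest, where the histogram is centred near a ratio of 1.01.

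Genes around the members in glutathione and alcohol metabolism were given by lists. Their counts stand beside shares over all tested genes of 34.8% higher and 31.7% lower in titled mitf than in larvae. For titled LacZ against larvae the shares were 46.3% and 32.2%, and for titled LacZ against titled mitf 41.1% and 31.6%. Of 4 genes of glutathione synthesis and turnover, 2 were higher and 2 lower in titled LacZ than in titled mitf. Gclc and Gclm, the subunits of the enzyme that limits glutathione synthesis, were the higher ones. Gclc averaged 333 in larvae, 451 in titled mitf and 1299 in titled LacZ (1.48 ± 0.27 between the prepupae). Gclm averaged 997, 250 and 710 in the same order (1.51 ± 0.14 between the prepupae). Against larvae, titled LacZ was called higher for Gclc (1.90 ± 0.27) and lower for Gclm (-0.48 ± 0.14). Gss1, a glutathione synthetase, was lower in titled LacZ (-1.58 ± 0.08).

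Of 3 genes of the Cnc and Keap1 stress pathway, which is known to drive GstD1, Keap1 was higher in titled LacZ than in titled mitf (2.42 ± 0.11), while cnc (-0.44 ± 0.13) and maf-S (-1.45 ± 0.12) were lower. All 3 were called higher in titled LacZ than in larvae. Of 12 thioredoxin, glutaredoxin and peroxiredoxin genes, 3 were higher and 6 lower in titled LacZ than in titled mitf. The largest differences among the higher ones were those of TrxT, a testis thioredoxin (4.13 ± 0.55), and of Prx6c, a peroxiredoxin (3.52 ± 0.27). TrxT averaged 17.6 in titled LacZ and was listed at 0 in titled mitf. It was tested through titled LacZ, where it was high. Prx6c stood at means of 51.2 in larvae, 1328 in titled mitf and 15737 in titled LacZ. Prx2 fell from 21155 in larvae to 2095 and 749.9. Of 5 genes for superoxide and peroxide removal, 4 were higher and 1 lower between the prepupae, the lower one being Cat, catalase (-3.06 ± 0.28).

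Of 11 other alcohol, polyol and aldehyde enzymes, 2 rose and 5 fell from larvae to titled mitf, and 2 rose and 9 fell from larvae to titled LacZ. Between the prepupae, 3 were higher and 5 lower in titled LacZ. Ssadh (-3.76 ± 0.10) and Aldh7A1 (-3.26 ± 0.10) had the largest differences among the lower ones. AcCoAS, which turns acetate from the Adh and Aldh route into acetyl-CoA, averaged 84952 in larvae, 3772 in titled mitf and 3867 in titled LacZ. Its log2 differences from larvae were -4.51 ± 0.39 and -4.65 ± 0.39, and the prepupae were not called apart (-0.14 ± 0.39). Sodh1, a sorbitol dehydrogenase that acts on the product of Akr1B, averaged 1903 in larvae, 24.3 in titled mitf and 379 in titled LacZ, and was called higher in titled LacZ than in titled mitf (3.97 ± 0.32), where Akr1B was lower. Sodh2, the other sorbitol dehydrogenase gene of the list, averaged 1264 in larvae, 187 in titled mitf and 48.2 in titled LacZ and was lower in titled LacZ than in titled mitf (-1.93 ± 0.20). Of 4 further genes of glutathione transferase fold or activity, 1 rose and 3 fell from larvae to titled mitf, and 2 rose and 2 fell from larvae to titled LacZ. Mgstl, a microsomal glutathione transferase of a separate membrane protein family, fell from 15203 in larvae to 280.3 and 388. The gene se, an Omega-class gene that acts in eye pigment synthesis, was listed at 0 in larvae and averaged 20.7 in titled mitf and 5.71 in titled LacZ. Averages of gfzf were 299 in larvae, 185 in titled mitf and 642 in titled LacZ.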

How the data were processed

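Fat body messenger RNA was sequenced in 9 libraries, 3 per group, with samples grouped by title. Per the submitters' processing notes, bcl2fastq, Salmon 1.5.2, DESeq2 and the build BDGP6 were used, and their order and settings are not given in the sources used here. The deposited values are a normalised signal per gene, not raw counts: over 7791 genes above 0 in every library, the median ratio to the genes' geometric means was 0.993 in each library, a mark of median-of-ratios scaling by the authors. Low values fell near whole multiples of 1 read (tolerance 0.05, up to 10 multiples) in 70.3% to 77.0% of cases, so whole reads were not recovered and no count model was used.

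Symbols and positions came from an Ensembl annotation of BDGP6, matching 10189 of 10242 identifiers. Genes below 1 in all but 2 or fewer libraries were left out, 103 in all, and 10139 were tested. The log2(value + 1) values of the 3 groups entered 1 limma fit (limma 3.58.1, R 4.3.3) that let the variance depend on the mean, with two-sided contrasts adjusted by Benjamini-Hochberg over the tested genes and called under 0.05. The procedure was tested on simulated data with changes planted only in genes of higher level, so that test does not cover changes of low genes. Depth limits the precision of values of a few reads.

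Members, lists and tests were chosen with earlier results of these data known. Members named with values were the 5 alcohol, aldehyde and aldose enzymes, 6 chosen transferases (GstD1, GstS1, GstE14, GstO2, GstZ1 and GstZ2), the 2 of each larger class with the highest level per kb of exon, and up to 4 called members per direction and comparison with the largest non-overlapping differences and a mean of at least 10. Other members are named to complete their classes. Of the other lists, up to 2 called genes per direction were eligible. Alternatives were pseudocounts of 0.1 and 5, no filter, a filter at 10, rescaling to library totals or by a trimmed mean, 2 groups in the fit, no trend, the replicate number as a block, and leaving out each library. Sequences of promoters and proteins were not analysed here.

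Between titled LacZ and titled mitf, the markers of gut, hemocytes and muscle gave 4 higher and 2 lower of 11, 1 and 1 of 7, and 2 and 0 of 6, and the fat body markers 0 higher and 7 lower of 8. Of all tested genes, 41.1% were higher and 31.6% lower.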

Additional observations from a re-analysis of the deposited data

How the results depend on the processing

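No member's call changed direction under any alternative. Over members, comparisons and alternatives, 1906 of the recomputed differences kept their side of the threshold, 63 lost a call and 23 gained one. The members with a call gained or lost under some setting numbered 6 in titled LacZ against titled mitf (GstD2, GstD4, GstD5, GstD7, GstE3 and GstE14), 9 in titled mitf against larvae (GstD2, GstD4, GstD8, GstE1, GstE6, GstE12, GstE14, GstO1 and GstT2) and 5 in titled LacZ against larvae (GstD4, GstD5, GstE1, GstE6 and GstE10). Leaving out each library in turn, the members called higher in titled LacZ than in larvae ranged from 5 to 8, with 5 without titled LacZ replicate 1 and 5 without replicate 3, where the lone pair is assumed to vary like the other groups. As a share of the library sum without 6 storage and fat body proteins, the members took 1.65% of the larvae, 0.387% of titled mitf and 0.134% of titled LacZ.

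With the replicate number as a block, 31 members were called in titled LacZ against titled mitf, 26 in titled mitf against larvae and 29 in titled LacZ against larvae, against 31, 25 and 29 without it. The replicate block changed 2 calls in the first comparison, adding GstD5 (1.86, adjusted p = 0.0456, limma) and losing GstE3 (-1.29, adjusted p = 0.0528), and 5 in the second (GstD2, GstD4, GstE12, GstO1 and GstT2). Deviations of same-numbered libraries from their group means correlated at -0.065 to 0.089 across genes. For libraries of different numbers the range was -0.132 to 0.102. This check cannot exclude a weak pairing or one limited to some genes. Values of a few reads, as for GstD8, GstE10, GstE14, GstO1 and GstZ2, limit what their fold changes can show.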
